A study of Mus musculus with 72 samples.

Results

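The cell proliferation genes were a list of 37 genes whose transcripts accumulate in dividing cells. Of these, 35 had at least 1 probe on the array and 29 had a probe detected (detection p under 0.05) in 3 or more of the 72 arrays. These 29 were tested among 12265 genes, each represented by its probe with the highest mean. No probe was found for Ccnb1 (cyclin B1) and Aurkb (a mitotic kinase). The probes of Ccna2 and Ccnb2 (cyclins), Bub1 (a checkpoint kinase), Ube2c (a ubiquitin-conjugating enzyme of mitosis), Kif20a (a kinesin of cytokinesis) and Hmmr (a spindle and hyaluronan receptor protein) were detected on fewer than 3 arrays, and these genes have no value here. Detection was counted over all arrays, so a gene seen on few arrays, such as Tpx2 on 19 of 72 and Ccne2 on 14 of 72, entered through the arrays in which it was brightest.

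A cell that enters the cycle first induces the genes of DNA replication and nucleotide supply, largely through E2F factors, and later those of mitosis, which depend on a promoter element called CHR and the complexes that bind it. A mature adipocyte has left the cycle. Dividing cells in adipose tissue are therefore usually precursors, vascular cells or leukocytes, macrophages included, and in a tumor the tumor cells. Cdkn2a and Cdkn2b encode inhibitors of the kinases that start the cycle, and both lie in a locus often altered in liposarcoma.

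The arrays profiled brown adipose tissue (BAT, interscapular) and white adipose tissue (WAT, perigonadal) of C57BL/6J mice that lacked the lipases ATGL (gene Pnpla2) or HSL (gene Lipe) in adipose cells, singly (ATGLAKO, HSLAKO) or together (DAKO, bred from both lines), beside controls. Every animal carried a Fabp4-Cre transgene, the knockouts also the floxed allele or alleles and the controls the transgene alone. The Fabp4 promoter is active in adipocytes and is known to be active in some macrophages as well. BAT was labelled at 3, 7 and 12 months in each of the 4 genotypes and also at 14 months in DAKO, with 4 or 5 arrays per group, and WAT at 3 months with 3 to 5 arrays per group, which makes 17 groups. The mice were fasted for 5 h, each array stood for 1 sample of 1 mouse, and some mice gave both a BAT and a WAT array. The labels do not say which DAKO samples held tumor.

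The labels and the transcripts did not match on every array, so each group below is the set of arrays with that label. Ucp1, the thermogenic protein of brown fat, was under 9 on the log2 scale on 23 of the 56 arrays labelled BAT and over 11 on 10 of the 16 labelled WAT. Upk3b, a mesothelial marker, read 8.96 to 10.91 on 16 arrays, among them all 8 control arrays labelled BAT at 7 and 12 months, and at most 5.32 on the others. Lipe was below the lowest 3-month control BAT array on 16 of 16 HSLAKO and 20 of 22 DAKO arrays, and also on 6 of 16 control arrays. Pnpla2 was below that mark on 17 of 22 DAKO and 8 of 18 ATGLAKO arrays, and also on 10 of 16 control and 9 of 16 HSLAKO arrays. In all, 15 of the 22 DAKO arrays were low in both. The Lipe deletion removes exon 1, and whether either probe lies in a deleted part was not given in the sources used here. No pair of arrays held identical values, and arrays of the same group correlated at r = 0.815 to 0.992.

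The letters of the elements named above occur in many of the promoters of these genes, and 5 promoters are printed as examples among which each element is seen. RefSeq (GRCm38.p6) gave a window from 250 bases before to 50 after the start for 24 of the 29 tested members. In the lines that follow, the 150 bases before the annotated start are written 5′ to 3′ on the strand of the gene, with the matches in capitals. The motifs searched on both strands were CHR (TTTGAA or TTCGAA, the second of which reads the same on both strands and was counted once), CCAAT, and the E2F letters TTTGGCGC, TTTCGCGC or TTTCCCGC. The windows are chr11:99024190-99024339 (minus strand) for Top2a, chr4:118437344-118437493 (minus) for Cdc20, chr7:127042421-127042570 (minus) for Kif22, chr7:122159285-122159434 (plus) for Plk1 and chr8:75109359-75109508 (plus) for Mcm5. Each lies upstream of the gene, apart from the last 10 bases of the Top2a window as counted towards the gene, which another annotated transcript of it covers.
Top2a: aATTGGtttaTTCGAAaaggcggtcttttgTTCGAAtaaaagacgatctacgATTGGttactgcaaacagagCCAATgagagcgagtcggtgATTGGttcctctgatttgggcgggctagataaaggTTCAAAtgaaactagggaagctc
Cdc20: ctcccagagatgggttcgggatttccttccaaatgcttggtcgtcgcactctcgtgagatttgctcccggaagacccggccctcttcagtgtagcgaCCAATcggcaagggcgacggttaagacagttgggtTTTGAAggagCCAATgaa
Kif22: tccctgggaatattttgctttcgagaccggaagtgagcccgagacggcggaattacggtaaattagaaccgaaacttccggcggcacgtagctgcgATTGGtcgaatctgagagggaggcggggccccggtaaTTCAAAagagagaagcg
Plk1: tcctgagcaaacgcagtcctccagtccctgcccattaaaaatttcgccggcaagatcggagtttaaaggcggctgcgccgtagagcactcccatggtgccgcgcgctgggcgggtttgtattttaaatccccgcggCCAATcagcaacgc
Mcm5: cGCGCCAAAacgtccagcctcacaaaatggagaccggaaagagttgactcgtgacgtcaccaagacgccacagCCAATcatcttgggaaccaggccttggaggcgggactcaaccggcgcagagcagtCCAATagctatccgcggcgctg
The Top2a window held CHR letters 140, 120 and 23 bases before the start and CCAAT letters 149, 98, 78 and 58 bases before it. Cdc20 (CHR at 18) and Kif22 (CHR at 17) each had CCAAT letters farther upstream, at 53 and 54, and Cdc20 had them also at 8. Plk1 showed CCAAT at 14 and no CHR letters in these bases, though its full window held 1 CHR match. Mcm5 showed E2F letters at 149 with CCAAT at 77 and 22. The promoters of Prc1 and Birc5 are not printed. In Prc1 the same bases held CCAAT at 37 and no CHR letters, though its full window held 1 CHR match. The full Birc5 window held no letters of any of these elements. Over the full windows, CHR letters were present in 13 of 24 members (54.2%) and in 19.4% of the windows of all 27025 genes. CCAAT was present in 19 (79.2%, against 37.9%), and E2F letters in 5 (20.8%, against 1.91%). By role, 4 of 6 replication genes had E2F letters and 2 of 6 CHR letters, while CHR letters were found in all 3 checkpoint genes, in 3 of 4 chromosome genes and in none of the 4 nucleotide genes. A match is a run of letters, and binding was not measured.

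Across the 72 arrays the members varied together. The mean of the 29 members on an array ran from 4.90 to 8.03 on the background-corrected, quantile-normalized log2 scale used throughout, where an undetected probe lies near 4 to 5. Each member was set against the mean of the other 28: Top2a, which untangles DNA, and Birc5 (survivin), of the chromosomal passenger complex, both reached r = 0.98, and Cdk1, Cdc20 and Cdca3 reached 0.97. The lowest values were those of Pcna, the replication clamp (0.65), Mcm7, a helicase subunit (0.58), and the cyclins Ccne2 (0.56) and Ccne1 (0.54). These are correlations over arrays that share a normalization, and they carry no test. The 8 members with several tested probes had r of at least 0.76 between those probes, except Tyms (thymidylate synthase), where the lowest was 0.07 over 5 probes.

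**Figure D1:**
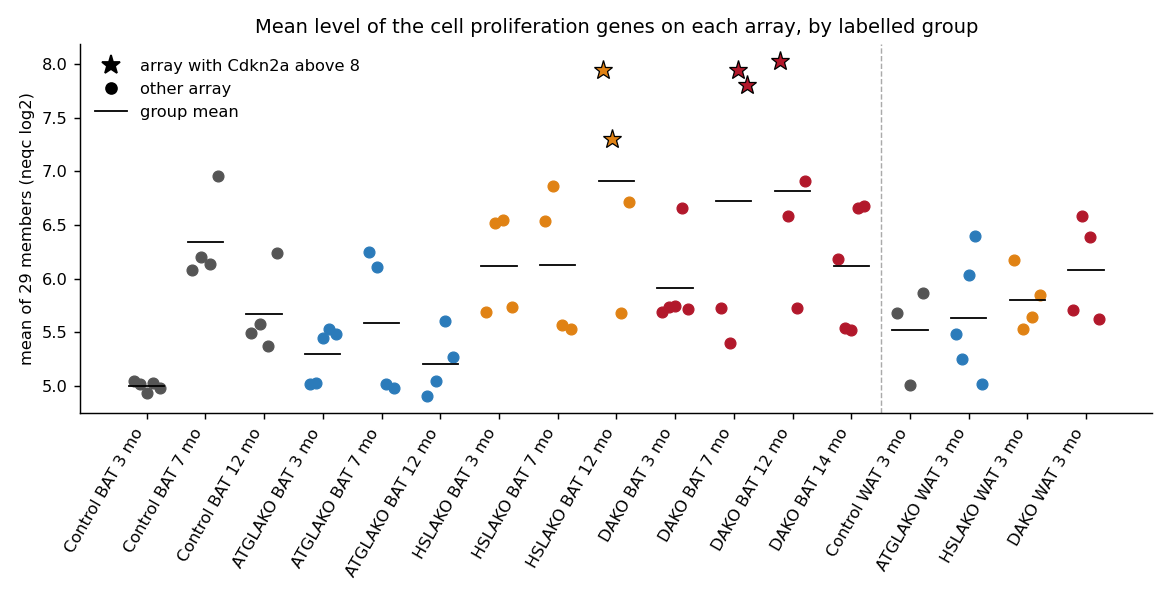
Mean neqc log2 value of the 29 tested cell proliferation genes on each of the 72 arrays (y axis), by labelled group (x axis); each point is an array, a star marks an array with Cdkn2a above 8, and the bar is the mean of the group. Control BAT at 3 months lies between 4.94 and 5.05, and the 5 starred arrays, from DAKO and HSLAKO BAT at 7 and 12 months, lie between 7.31 and 8.03.

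At 3 months, the age that precedes tumors, the comparison of DAKO with control BAT asks what changes early. Top2a was undetected on all 5 control arrays (4.54, 4.53, 4.42, 4.34 and 4.25 for replicates 1 to 5) and was detected on all 5 DAKO arrays (5.36, 5.66, 6.18, 6.70 and 5.60). Prc1, which bundles the microtubules of the central spindle, read 4.73, 4.39, 5.06, 4.50 and 5.94 in control and 6.86, 7.14, 7.11, 8.86 and 7.43 in DAKO BAT. Kif22, a chromosome-bound kinesin, read 4.95, 4.54, 4.67, 4.62 and 4.53 in control and 6.27, 6.31, 6.22, 7.73 and 6.07 in DAKO BAT. In none of these genes did the groups overlap, and DAKO replicate 4 was the highest array each time.

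A call required an adjusted p under 0.01 (limma, Benjamini-Hochberg over 18083 probes) together with a log2 difference exceeding 1.5 in either direction. By that rule 0 of the 29 members were called between DAKO and control BAT at 3 months, against 0.685% of all genes. An unadjusted p under 0.05 was found for 14 and an adjusted p under 0.05 for 3. Those 3 were Prc1 (log2 fold change 2.55, SE 0.73, adjusted p = 0.0283), Kif22 (1.86, SE 0.56, adjusted p = 0.0393) and Nusap1, a spindle-associated protein (1.54, SE 0.47, adjusted p = 0.0403). The fold change of Top2a was 1.48 (SE 0.62, adjusted p = 0.141). Set against the lowest detectable signal of each control array, in place of the unmeasured control level, the DAKO mean of Top2a was at least 1.99-fold higher, that of Tk1 (thymidine kinase) at least 2.18-fold and that of Cdk1 at least 1.66-fold. The median fold change of the members was 0.76, with 26 above 0, beside a median of -0.04 over all genes. It was 0.73 with the 9 members undetected in control BAT, but detected on some DAKO array, at their bound. The median was 0.18 on the authors' normalized values and 0.31 without background correction.

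The differences at 3 months were spread over the roles. The chromosome genes (Birc5, Cdca8, Top2a, Kif22) had a median of 1.67, the checkpoint genes (Bub1b, Cdc20, Cdca3) of 1.37, and the replication genes (Mcm2 to Mcm7 and Pcna) of 0.76. Birc5 had a fold change of 1.94 (SE 0.64, adjusted p = 0.0586) and Cdc20, the activator of the anaphase-promoting complex, of 1.64 (SE 0.64, adjusted p = 0.111). Mcm5, of the replicative helicase, had 1.27. Tyms had -0.08. Of the cyclins that act at the start of replication, Ccne1 had -0.06 and was detected on 2 of 5 arrays in each group. Ccne2 was undetected on every array of both groups, so its fitted -0.01 is a difference between unmeasured levels. In 17 of the 29 members every DAKO array was above every control array, which held for 8.32% of all genes. They were Mcm2, Mcm4, Mcm5 and Mcm6, Tk1, Cdk1, Plk1, Cdc20, Cdca3, Birc5, Cdca8, Top2a, Kif22, Tpx2, Nusap1, Prc1 and Stmn1, and thus included members of all 6 roles. Of these, Tpx2 and Stmn1 were detected on 0 of 5 control and 1 of 5 DAKO arrays, and Cdca8 on 0 of 5 and 2 of 5. Their order rests largely on undetected values.

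Macrophage transcripts moved with these genes at 3 months. Each of the 15 measured macrophage markers was higher in DAKO than in control BAT at 3 months, 7 of them called, with a median fold change of 3.20. Their mean level ran from 6.25 to 6.59 in control and from 8.59 to 10.64 in DAKO BAT. Adgre1, the defining marker, was detected on every one of those arrays, at 5.14 to 5.89 in control and 8.06 to 10.91 in DAKO BAT, and DAKO replicate 4 had the highest Adgre1 of its group along with the highest member mean (6.66, others 5.69 to 5.75). None of the 10 mesothelial markers was called there. Of other lists, 6 of 8 fibroblast and preadipocyte markers were higher (2 called, median 1.53), 9 of 9 skeletal muscle markers (0 called, median 2.33) and 8 of 9 lymphocyte markers (0 called, median 0.79), while 8 of 8 brown adipocyte markers were lower (0 called, median -0.66). In whole tissue, a different number of cells of a type and a different amount of RNA per cell cannot be told apart, and the part of these cell types in the result was not tested. Without DAKO replicate 4 the members called remained 0.

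**Figure D2:**
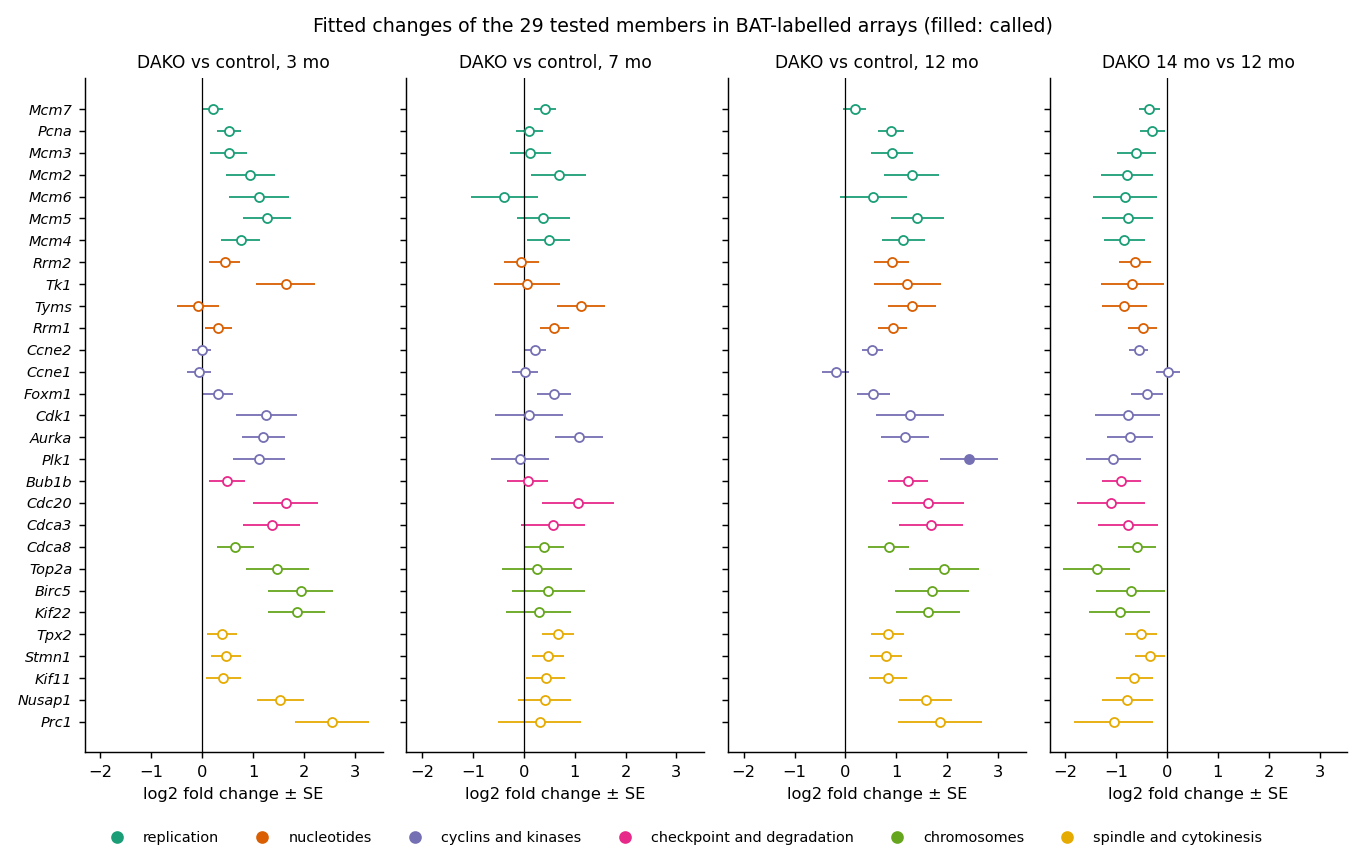
Fitted log2 fold change ± SE (limma) of each tested member, coloured by role, for DAKO against control BAT at 3, 7 and 12 months and for DAKO BAT at 14 against 12 months; a filled point is a called member. The 1 filled point is Plk1 at 12 months (2.43), and in the last panel 28 of the 29 points lie below 0.

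At 7 months the DAKO arrays separated into a low pair and a high pair. Top2a read 5.35, 4.79, 8.41 and 9.11 in DAKO BAT and 6.53, 6.19, 6.32 and 7.57 in control BAT. Mcm4, a helicase subunit, read 8.59, 8.23, 10.46 and 10.93 in DAKO and 8.62, 8.95, 9.09 and 9.60 in control BAT. Cdca3, a mitotic entry factor, read 6.68, 6.43, 10.04 and 9.46 in DAKO and 7.11, 7.42, 7.26 and 8.48 in control BAT. Replicates 1 and 2 were thus below every control array, and replicates 3 and 4 above every control array, in all 3 genes. Plk1, the polo-like kinase of mitosis, was high on replicate 3 alone (5.91, 5.37, 8.79 and 5.36). No member was called (0 of 29, against 0.815% of genes), and 4 had an unadjusted p under 0.05. No member was wholly above the controls, against 5.89% of all genes, and the median fold change was 0.40. That median turned to -0.03 without DAKO replicate 3. Of the 15 macrophage markers, 14 were lower in DAKO than in control BAT at 7 months (0 called, median -0.69), and their part was not tested. The control arrays of this age carried mesothelial markers and Ucp1 of 4.34 to 8.25, and against the 3-month control arrays 12 of 29 members were called, all higher, with a median of 1.43, where 3.85% of all genes were called. Age, genotype and tissue content cannot be told apart in that comparison.

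At 12 months, Plk1 was called in DAKO against control BAT. It read 4.44, 5.28, 4.37 and 5.73 in control (detected on 2 of 4 arrays) and 8.75, 7.15, 5.91 and 7.76 in DAKO BAT, with no overlap, and rose by a log2 fold change of 2.43 (SE 0.57, adjusted p = 0.00204). It was the only called member (1 of 29, against 3.82% of all genes), so the share of calls was near the background. An unadjusted p under 0.05 was found for 23 of the 29, and an adjusted p under 0.05 for 7. Without DAKO replicate 1, or without control replicate 1 or 3, no member was called, and without DAKO replicate 3, 6 were. The share of all genes called is not given for these fits. The fold change of Plk1 was 0.81 on the authors' normalized values and 1.18 without background correction, and neither was called.

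The other members at 12 months were mostly higher on the DAKO arrays, with wide spread. Top2a read 5.11, 5.53, 4.75 and 6.50 in control and 9.06, 7.57, 5.66 and 7.34 in DAKO BAT (fold change 1.94, SE 0.69, adjusted p = 0.0471). Rrm1, the large subunit of ribonucleotide reductase, read 6.73, 6.91, 6.69 and 7.39 in control and 8.80, 7.70, 7.37 and 7.56 in DAKO BAT (0.93, SE 0.29, adjusted p = 0.0232). The groups overlapped in both genes, where DAKO replicate 3 lay below the highest control array. Pcna was undetected on all 4 control arrays and detected on all 4 DAKO arrays, at least 1.68-fold higher (fitted log2 fold change 0.90, SE 0.26, adjusted p = 0.0125). Bub1b, a kinase of the spindle checkpoint, had 1.23 (SE 0.40, adjusted p = 0.0277) and Tyms 1.31 (SE 0.47, adjusted p = 0.0455), while Ccne1 had -0.19. Pcna, Plk1 and Bub1b were the 3 members with every DAKO array above every control array, which held for 6.55% of all genes. The members' median fold change was 1.17, beside 0.05 over all genes, and 28 of the 29 were above 0.

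The control arrays at 12 months carried mesothelial markers and were low in Ucp1 (4.33 to 4.69). Of the 10 mesothelial markers each lay below control in DAKO BAT, and 6 were called. All 9 adipocyte markers were also lower, 2 of them called. The macrophage markers had a median of 1.18 with 0 of 15 called, and Adgre1 read 6.89 to 8.83 in control and 8.03 to 11.17 in DAKO BAT. The part of these cell types in the 12-month result was not tested. Against the 3-month control arrays, 16 of 29 members were called, all higher, where 9.34% of all genes were called. There too, age, genotype and tissue content cannot be told apart.

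With age, no member was called within DAKO. From 3 to 12 months all 29 members had fold changes above 0, with a median of 1.03 (0 called, 14 with an unadjusted p under 0.05, lowest adjusted p = 0.288, 0% of all genes called). From 12 to 14 months, 28 of the 29 were below 0, with a median of -0.72 (0 called, 4 with an unadjusted p under 0.05, lowest adjusted p = 0.834, 0% of all genes called). Top2a read 6.00, 5.03, 5.39, 6.91 and 6.83 at 14 months, so that replicates 1, 4 and 5 lay among the 12-month values and replicates 2 and 3 below all of them. Prc1 read 8.03, 6.92, 6.83, 8.74 and 8.83 at 14 months and 10.74, 8.60, 6.99 and 9.36 at 12 months. On the 14-month arrays, replicates 4 and 5 had Ucp1 of 6.21 and 6.82 and the others of 13.47 to 13.56. The change of the difference between DAKO and control BAT was not called for any member either, from 3 to 12 months (median 0.31; 0 of 29, 2 with an unadjusted p under 0.05; 0.946% of genes called) or from 3 to 7 months (median -0.40; 0 of 29, 1 with an unadjusted p under 0.05; 1.44%).

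HSLAKO BAT held 2 called members at 3 months. Prc1 read 7.49, 8.62, 8.71 and 7.40, above all 5 control arrays, and rose by 3.13 (SE 0.78, adjusted p = 0.00797). Kif22 read 6.21, 7.49, 7.68 and 6.63, also above all control arrays, and rose by 2.34 (SE 0.60, adjusted p = 0.00991). These were 2 of 29 members, against 1.54% of all genes. Of the 29, 18 had an unadjusted p under 0.05, and 6 an adjusted p under 0.05, among them Nusap1 (1.91, SE 0.50, adjusted p = 0.0107), Mcm5 (1.75, SE 0.50, adjusted p = 0.0178) and Birc5 (2.28, SE 0.68, adjusted p = 0.0244). Both calls were lost on the authors' normalized values, where the fold changes of Prc1 and Kif22 were 1.11 and 0.62, without background correction (1.59 and 0.97), with a normexp offset of 50 (Kif22 at 1.47) and in 3 other settings, and leaving out any array left at most 1. In 17 members every HSLAKO array was above every control array, as in 12.6% of all genes. Of these, Cdca8 was detected on 0 of 5 control and 2 of 4 HSLAKO arrays. All 15 macrophage markers were higher as well, 9 called, with a median of 3.48, and Adgre1 read 7.86 to 11.08. Of the fibroblast and preadipocyte markers 7 of 8 were higher (3 called), and 8 of 8 brown adipocyte markers were lower (1 called). The part of these cell types was not tested. The control arrays are those of the DAKO comparison.

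Later HSLAKO groups differed from each other. At 7 months the members were at a median of -0.15 against control BAT (0 of 29 called, 0 with an unadjusted p under 0.05, against 0.921% of genes called), and 2 HSLAKO arrays were high and 2 low in Top2a (7.40, 7.77, 5.50 and 4.72). Of 15 macrophage markers, 11 were lower in HSLAKO BAT at that age (0 called, median -0.38), and their part was not tested. At 12 months Top2a read 9.29, 8.00, 5.52 and 6.85, and Plk1 read 8.59, 7.25, 6.07 and 7.04, above all 4 control arrays. Plk1 rose by 2.28 (SE 0.57, adjusted p = 0.00316) and was the only member called (1 of 29, against 4.45% of genes), with 15 at an adjusted p under 0.05 and a median of 1.17. Without the HSLAKO replicates 1 or 2, or control replicates 1 or 3, no member was called. Without HSLAKO replicate 3, 12 were, and without replicate 4, 2 were. For these fits the share of all genes called is not given. The fold change of Plk1 was 0.71 on the authors' normalized values and 1.06 without background correction, and neither was called. Pcna, Plk1 and Aurka, a spindle pole kinase, did not overlap with control BAT, as 8.05% of all genes did not in that direction. Beside these values, 9 of 9 adipocyte markers (7 called, median -3.17) and 10 of 10 mesothelial markers (4 called, median -2.12) were lower in HSLAKO BAT at 12 months, 14 of 15 macrophage markers were higher (0 called higher, 1 called lower, median 0.83), and so were 9 of 9 skeletal muscle markers (0 called, median 3.23). Their part was not tested.

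ATGLAKO BAT gave no called member at any age. Its fold changes against control BAT had medians of 0.22 at 3 months (0 of 29 called, against 0.0815% of genes; 0.15 with undetected members at their bound), -0.64 at 7 months (0 of 29, against 0%) and -0.38 at 12 months (0 of 29, against 0.383%). At an unadjusted p under 0.05 there were 0, 7 and 0 members. All 15 macrophage markers were higher at 3 months (median 1.77) and lower at 7 months (median -1.59). At 12 months 12 of the 15 were lower (median -0.74). None of them was called, and their part was not tested. Top2a was 6.69, 6.11, 4.42 and 4.42 on the 7-month ATGLAKO arrays, of which replicates 1 and 2 had Ucp1 of 6.35 and 4.40 with Upk3b of 9.90 and 10.39, and replicates 3 and 4 had Ucp1 of 13.30 and 13.69 with Upk3b of 4.62 and 4.86.

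Set directly against each other at 12 months, DAKO was above ATGLAKO in all 29 members, with a median of 1.55 (0 called, 28 with an unadjusted p under 0.05, lowest adjusted p = 0.0543, 0% of all genes called). In 15 of them, Top2a, Prc1 and Plk1 included, every DAKO array was above every ATGLAKO array, which held for 2.60% of all genes. Stmn1, 1 of the 15, was detected on 0 of 4 ATGLAKO and 2 of 4 DAKO arrays. On the same arrays 14 of 15 macrophage markers were higher in DAKO (median 2.27), and 6 of 8 brown adipocyte (median -2.86) and 9 of 9 adipocyte markers (median -1.68) were lower, with 0 called, and their part was not tested. DAKO against HSLAKO gave a median of -0.08, with 12 members above and 17 below 0 (0 called, 0 with an unadjusted p under 0.05; 0% of genes). For Top2a the arrays of both groups spanned 5.52 to 9.29. The contrast of DAKO with the sum of both lines' differences from control called no member at 3 months (median -0.49; 0 with an unadjusted p under 0.05; 0.00815% of genes), 7 months (median 1.41; 13 with an unadjusted p under 0.05; 0%) or 12 months (median 0.27; 0 with an unadjusted p under 0.05; 0%).

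On the arrays labelled WAT, no member was called in any knockout line. The medians were 0.46 in DAKO (28 of 29 above 0), 0.07 in ATGLAKO and 0.30 in HSLAKO, with 0 of 29 members called, 0 with an unadjusted p under 0.05, and 0% of all genes called in each. Top2a read 5.68, 4.24 and 5.54 in control and 5.47, 6.66, 6.62 and 5.29 in DAKO WAT, with overlap. Since most of these arrays carried high Ucp1, the tissue label is uncertain for them.

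The control arrays labelled BAT at 12 months were also set against those at 3 months. The median of the members was 0.55, with 26 of 29 above 0, 0 called, 5 with an unadjusted p under 0.05 and 7.03% of all genes called. Prc1 had a fold change of 2.14 and Mcm6 of 1.85, and 15 members had every array above the 3-month arrays, as did 19.9% of all genes. Of these 15, Cdca8 and Kif11 were detected on 0 of 5 arrays at 3 months and 2 of 4 at 12 months. Between the same arrays 8 of 8 brown adipocyte markers were lower (6 called, median -4.44), with Ucp1 at 13.61 to 13.82 at 3 months and 4.33 to 4.69 at 12 months. All 10 mesothelial markers (6 called, median 2.37) and all 15 macrophage markers (6 called, median 2.51) were higher. Age and tissue content cannot be told apart here. Among control arrays at 12 months, replicate 4 was the highest in Prc1 (8.50, others 6.47 to 6.67) and in Adgre1 (8.83, others 6.89 to 7.04).

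The group averages covered a pattern of single arrays. Cdkn2a was at 9.30 to 10.64 on 5 arrays and at 4.18 to 5.72 on the other 67, where it was detected on 5. The 5 were DAKO BAT at 12 months replicate 1, DAKO BAT at 7 months replicates 3 and 4, and HSLAKO BAT at 12 months replicates 1 and 2, with member means of 8.03, 7.95, 7.81, 7.95 and 7.31. No other array exceeded 6.96 (control BAT at 7 months replicate 4). All 29 members were detected on each of the 5, Ucp1 was at 4.26 to 4.81 and Lipe at 4.48 to 4.77 there. These traits were not limited to the 5. All 29 were also detected on control BAT at 7 months replicate 4, HSLAKO BAT at 7 months replicate 2 and DAKO WAT replicate 3. Ucp1 was 4.33 to 4.69 in control BAT at 12 months. Lipe was 4.61 on HSLAKO BAT at 12 months replicate 4, 4.74 on DAKO BAT at 12 months replicate 2 and 4.65 on DAKO WAT replicate 2.

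Member by member, the 5 arrays stood above the other 67 unevenly. Birc5 read 9.16 to 9.77 on the 5 and at most 8.14 on the 67. Cdc20 read 9.06 to 10.38 and at most 7.95 on the 67, and Tyms 8.78 to 9.83 and at most 7.64. Foxm1, the transcription factor of mitotic genes, read 6.32 to 7.56 on the 5 and at most 5.97 on the 67, and Bub1b 6.78 to 7.76 and at most 6.31. For 14 of the 29 members all 5 arrays were above all 67, which was so for 4.38% of all genes. Plk1 was not among them (5.36 to 8.79, against at most 7.76), and Pcna was at 5.08 to 5.47 on the 5 and reached 6.26 elsewhere. These arrays were picked out by their Cdkn2a after the data were seen, so no test was made between them and the rest. Without them, Plk1 was called in DAKO BAT at 12 months (fold change 1.98, adjusted p = 0.00712; 1 member called). Of the 5, that comparison holds DAKO replicate 1 only, and leaving out that array alone gave the same fold change with an adjusted p of 0.0213 and no call. Without the 5 arrays, no member was called in HSLAKO BAT at 12 months, and the DAKO median at 7 months was -0.79.

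**Figure D3:**
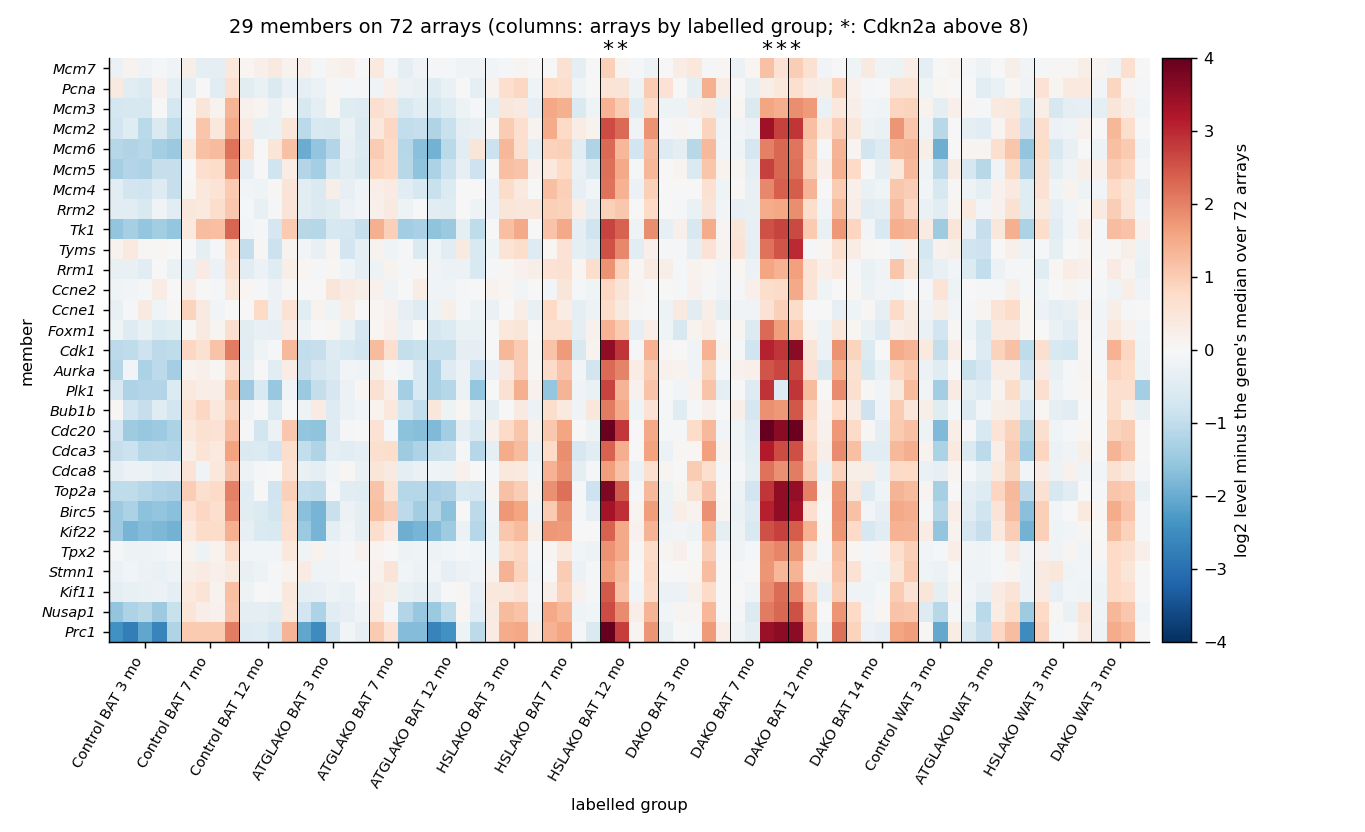
Heat map of the 29 tested members (rows, ordered by role) on the 72 arrays (columns, by labelled group), each row as the difference from its own median on the log2 scale. The 5 arrays high in Cdkn2a form the columns with the highest values in most rows, while Ccne1, Ccne2, Mcm7 and Pcna vary less.

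Over the other 67 arrays the member mean followed Adgre1. Pearson's r was 0.91 (Spearman's rho 0.88; r = 0.91 without the 2 arrays farthest from the median of Adgre1), 0.92 on the 51 arrays labelled BAT and 0.87 on the 16 labelled WAT. For deviations from each group's mean r was 0.90. The 14 arrays with Adgre1 under 7 had member means of 4.90 to 5.58, and the 13 with Adgre1 above 10.19 had 6.17 to 6.96. These values describe arrays that share a normalization and, in part, mice, and they carry no p. With the mean of the macrophage markers r was 0.94, with Cdkn2a 0.46 (rho 0.36) and with Ucp1 -0.53. Among these 67 arrays Cdkn2a was detected on 5, which had member means of 6.59 to 6.86 and Adgre1 of 10.22 to 11.06.

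The 5 arrays high in Cdkn2a lay off the relation with Adgre1. Their Adgre1 was at 9.26 to 10.19, a range that also held 6 of the 67 arrays, and those 6 had member means of 5.62 to 6.54 where the 5 had 7.31 to 8.03. Among members, r with Adgre1 over the 67 arrays was 0.92 for Birc5, Kif22, Nusap1 and Prc1 and 0.91 for Mcm5 and Cdca3. It was 0.50 for Rrm1, 0.47 for Tyms, 0.25 for Mcm7, 0.21 for Ccne1 and 0.08 for Ccne2. Tyms had all 5 arrays above the 67, as did Birc5, Nusap1 and Prc1, while Rrm1, Mcm7, Ccne1 and Ccne2 did not. The Tyms values rest on 1 of 5 probes, between which the lowest r was 0.07.

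**Figure D4:**
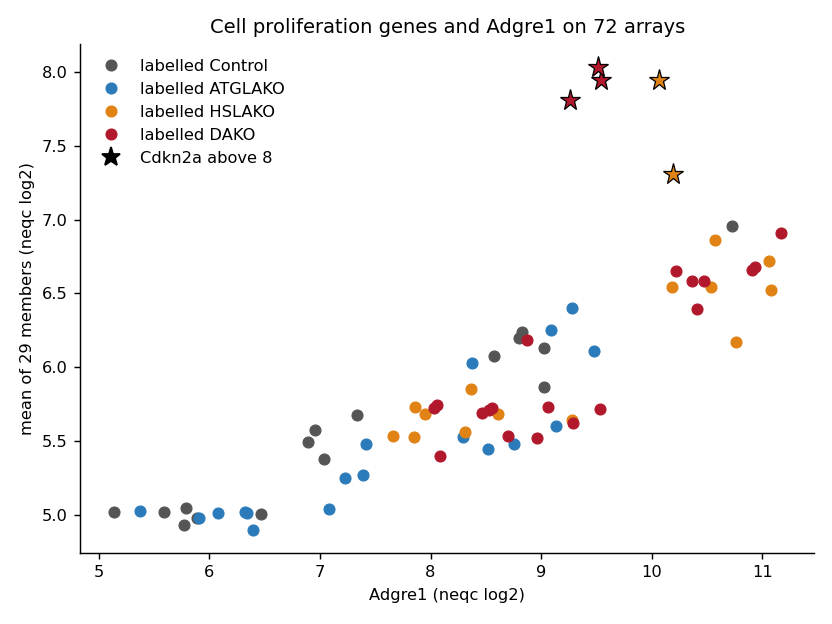
Mean of the 29 tested members (y axis, neqc log2) against Adgre1 (x axis, neqc log2) on 72 arrays, coloured by labelled genotype; stars are the 5 arrays with Cdkn2a above 8. On the other 67 arrays both values increase together (r = 0.91), and the stars, at Adgre1 of 9.26 to 10.19, lie above them at 7.31 to 8.03.

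Genes outside the list were ranked by their correlation with the member mean, so the likeness of the top ones was set by the ranking. The 10 non-members most correlated with the member mean over 72 arrays were Pbk (r = 0.98), Clspn, Cdca2 and Kif2c (0.97 each), Gtse1, Kif15, Incenp, Pclaf and Spdl1 (0.96 each) and Ostc (0.95). All but Ostc, a subunit of the oligosaccharyltransferase, have known roles in replication, mitosis or cell cycle control. Of 49 other measured cell cycle genes, 40 were above 0 in DAKO against control BAT at 3 months (median 0.23, 0 called), 43 at 7 months (0.41, 0 called) and 45 at 12 months (0.72, 3 called), and 44 were below 0 from 12 to 14 months (-0.59, 0 called). In the DAKO comparison at 12 months, 3.82% of all genes were called. The 3 called there were Cenpa, the centromere histone (2.34, SE 0.54, adjusted p = 0.00171), Cdt1, which licenses origins (2.28, SE 0.64, adjusted p = 0.00968), and Uhrf1, which maintains DNA methylation (1.95, SE 0.53, adjusted p = 0.0079). In HSLAKO BAT at 12 months Cenpa (2.69), Uhrf1 (2.27) and the replication kinase Cdc7 (1.67) were called, 3 of 49 against 4.45% of all genes. At 3 months the ligase Lig1 (2.12) was called, 1 of 49 against 1.54%. Lig1 (1.80) and Lmnb1 (1.63) were also called in control BAT at 12 against 3 months, 2 of 49 against 7.03%.

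Inhibitors of the cycle were also measured. Of 11 such genes, 1 was called in DAKO against control BAT at 12 months, Cdkn1c (1.83, SE 0.48, adjusted p = 0.00554), and 0 at 3 months, where their median was -0.02. Cdkn2a was called in HSLAKO BAT at 12 months (adjusted p = 0.0075), where it read 10.64, 9.44, 4.21 and 5.59. It was undetected on all 4 control arrays (4.44, 4.23, 4.50 and 4.32), so that the HSLAKO mean was at least 7.26-fold higher, and 2 of the 4 HSLAKO arrays carried the difference. Of 6 genes that drive the start of the cycle, Ccnd1 (cyclin D1) was called in HSLAKO BAT at 3 months (2.36, SE 0.59, adjusted p = 0.00834), and none was called in DAKO BAT at 3 or 12 months, where their medians were 0.14 and 0.21. Ccnd1 was also called in control BAT at 12 against 3 months (2.12, SE 0.59, adjusted p = 0.00542), as was Ccnd2 (2.30, SE 0.49, adjusted p = 0.000469). In that comparison 7.03% of all genes were called.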

How the data were processed

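The arrays were Illumina MouseRef-8 beadchips, one sample per array. The deposited table held probe intensity values as exported from BeadStudio, not normalized, each with a detection p-value that the authors deposited beside it; the authors also deposited normalized log2 values, used here only as an alternative. The background correction behind the log2 values was not given in the sources used here. No column belonged to a sample outside the series.

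Signals were background-corrected, offset by 16, quantile-normalized and log2-transformed (neqc, limma 3.58.1 in R 4.3.3), with the background level inferred from the detection p-values. Of 25697 probes, 18083 were detected (p under 0.05) in 3 or more arrays and were fitted over the 17 labelled groups (lmFit, eBayes), with Benjamini-Hochberg adjustment. The script was tested on simulated data. Calls needed an adjusted p under 0.01 together with a log2 difference exceeding 1.5 either way. A gene took its brightest tested probe; for genes undetected on every array of a group a bound was computed per array. The number of arrays limits precision, and each p-value sets a group difference against the spread of arrays within the 17 labelled groups.

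Array values were given for Top2a, called members and the brightest member of each role; called genes of other lists and the 10 genes most like the member mean were named. Members, lists and rules were chosen with earlier results of these data known. Alternatives covered probe choice, filter, background, normalization, weights, blocks, reference and each array left out; leaving out 5 arrays high in Cdkn2a was added after seeing the data. Replicate numbers did not pair the samples.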

Additional observations from a re-analysis of the deposited data

Results flagged for a closer look

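Of 128 sets of values (a gene or the member mean within a group of 4 or 5 arrays), 11 held an array set apart from the rest of its group; chance marks about 1 in 20 such sets, and the sets share arrays and are correlated. All lay high, and 10 of the 11 came from 3 arrays. In DAKO BAT at 3 months, replicate 4 stood above the others in the member mean (6.66, others 5.69 to 5.75), Kif22 (7.73, others 6.07 to 6.31), Prc1 (8.86, others 6.86 to 7.43), Mcm4 (9.15, others 8.38 to 8.53) and Cdca3 (8.49, others 6.63 to 7.00); its Adgre1 was 10.91. In control BAT at 7 months, replicate 4 stood above the others in the member mean (6.96, others 6.08 to 6.20), Plk1 (7.16, others 6.14 to 6.27) and Prc1 (9.20, others 8.19 to 8.21); its Adgre1 was 10.73. In control BAT at 12 months, replicate 4 stood above the others in Prc1 (8.50, others 6.47 to 6.67) and Cdca3 (7.56, others 6.11 to 6.32); its Adgre1 was 8.83. The remaining set was Plk1 in DAKO BAT at 7 months, where replicate 3 read 8.79 and the others 5.36 to 5.91, although replicate 4 was also high in Cdkn2a. The cause was not tested.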

How the results depend on the processing

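Settings are compared by the number of members called, which was 0, 0 and 1 for DAKO against control BAT at 3, 7 and 12 months, 0 for DAKO at 14 against 12 and at 12 against 3 months, and 2 and 1 for HSLAKO against control BAT at 3 and 12 months. With an adjusted p under 0.05 and no fold minimum, 3 and 7 members were called in DAKO and 6 and 15 in HSLAKO BAT at 3 and 12 months. On the authors' normalized values, and without background correction, 0 were called in DAKO at 12 months and in HSLAKO at 3 and 12 months. In HSLAKO at 3 months the count was also 0 with an offset of 50, a common median or no filter on dim probes. In HSLAKO at 12 months it was 2 with any tested probe or with the probe of largest variance. With array weights, whose estimation did not fully converge, the counts were 4 and 8 for DAKO at 3 and 12 months, 2 for 14 against 12 months, 3 for 12 against 3 months, and 7 and 14 for HSLAKO. Fitted on the compared groups alone they were 6 and 0 for DAKO and 10 and 0 for HSLAKO. Against 3-month controls they were 12 and 16 for DAKO at 7 and 12 months, where 3.85% and 9.34% of all genes were called. Age differs along with genotype in those counts. For the other alternatives the share of all genes called is not given, so their counts stand without that background. Leaving out each array gave 0 to 6 for DAKO at 12 months, 0 to 1 for HSLAKO at 3 and 0 to 12 for HSLAKO at 12 months, and 0 throughout for the other 4 comparisons. Without the 5 arrays high in Cdkn2a, chosen after seeing the data, it was 0 for HSLAKO at 12 months. The median of 0.76 for DAKO at 3 months was 0.183 on the authors' values, 0.312 without background correction and 1.121 for members detected on at least 36 arrays; that of 0.91 for HSLAKO at 3 months was 0.254, 0.433 and 1.452, and 1.271 with a common median. The median of 0.40 for DAKO at 7 months was -0.121 with a common median, -0.248 with array weights, -0.786 without the 5 arrays, and 1.43 against 3-month controls; leaving out each array it ran from -0.028 to 0.858. The medians of the other 4 kept their sign in every alternative run (0.473 to 1.886 for DAKO at 12 months, -1.124 to -0.28 for 14 against 12 months, 0.446 to 1.368 for 12 against 3 months, 0.508 to 1.56 for HSLAKO at 12 months), as did r with Adgre1 (0.905 to 0.919). Deviations of same-numbered arrays correlated at r of -0.51 to 0.80 over the 7 comparisons, and in none did every pair exceed 0.1, so the numbers do not pair the samples; with the replicate block 0 members were called in HSLAKO at 3 months, and it changed no other count. The causes of these shifts were not tested. The slide as a block was not run, since slides were not given in the sources used here. Signal over background limits members such as Tpx2, Ccne2 and Mcm7, detected on 19, 14 and 24 of 72 arrays.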
